A study of Homo sapiens with 4 samples.

Results

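The comparison described here is that of KMS18 cells with a stable knockdown of PKCα against KMS18 cells with a luciferase control construct. KMS18, named K18 in the labels, is a human multiple myeloma cell line that carries t(4;14), the translocation that brings NSD2 and FGFR3 under the immunoglobulin heavy chain locus. Both KMS18 libraries share that translocation, the bone marrow origin and the plasma cell label, and they differ in the construct. They are 2 of the 4 RNA sequencing libraries of the study, and the other 2 are a luciferase control and a PKCα knockdown of KMS28BM, a second t(4;14) myeloma line. Whether each KMS18 culture was a clone or a pool, how long the construct had been carried and which hairpin sequence was used are not given in the sources used here. Of 22187 genes in the 4 tables, the 11742 that reached 1 FPKM (fragments scaled to gene length and library size) in at least 1 KMS18 library were compared.

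PKCα, the product of PRKCA, is a conventional protein kinase C that calcium and diacylglycerol recruit to the membrane, and it acts upstream of the RAS and ERK kinases in many cells. Plasma cells secrete antibody, so their endoplasmic reticulum (ER) holds a large folding and export machinery that XBP1 and the unfolded protein response maintain. In t(4;14) myeloma the FGFR3 receptor tyrosine kinase can feed the same ERK pathway, and the methyltransferase NSD2 spreads dimethylation of histone H3 lysine 36.

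The control library held 37940949 expected counts and the knockdown library 37957404, and 11242 and 11591 genes reached 1 FPKM. Immunoglobulin genes took 4.66% and 4.28% of the counts, and cytosolic ribosomal protein genes 7.26% and 8.99%. All 10 plasma cell markers examined reached 1 FPKM in both libraries. The T cell markers TRBC1, TRBC2 and CD8A and the myeloid markers CD14 and S100A8 were not listed in either KMS18 library, while CD3E, TRAC and S100A9 were above 1 FPKM in both and higher in the knockdown. EPCAM, an epithelial adhesion molecule, was at 289.9 and 207 FPKM, KRT8, a keratin, was at 0.81 and 2.11 FPKM, KRT19 was not listed and KRT5, KRT18 and CDH1 stayed below 1 FPKM. There is 1 library per construct in each line, so no difference within KMS18 has a replicate check, and sizes are given with no p-value. Intervals are exact 95% Poisson intervals of the log2 ratio of counts per library, and they cover counting error only. In RNA from whole cultures, fewer cells of a kind and less RNA per cell cannot be told apart.

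PRKCA, the gene targeted, lies on the plus strand of chromosome 17 (66302636 to 66810743, GRCh38). Its level was 7.46 and 1.47 FPKM in the KMS18 control and knockdown, from 2031 and 395 expected counts. The knockdown kept 19.7% of the control level. The difference of log2(FPKM + 1), the scale used for every difference below, was -1.78, and the log2 count ratio had an interval of -2.52 to -2.21. This scale understates the difference of genes near 1 FPKM. Wherever a pair of levels is given, the control comes first, and a number in brackets after it is this difference. In KMS28BM PRKCA was at 10.9 and 2.43 FPKM, a difference of -1.79. Of the 12 protein kinase C and D genes listed, 9 could be compared in KMS18, and PRKCA was the one member past 2-fold. PRKCE, a calcium-independent family member, was at 1.12 and 0.45 FPKM, and PRKCB, a conventional one like PKCα, was at 0.56 and 1.41 FPKM. PRKD3, at 73.8 and 73.3 FPKM, had the highest level in the family and PRKCI, an atypical member, was at 10.2 and 8.52 FPKM. RASGRP3, a RAS activator that binds diacylglycerol, was at 114 and 70.2 FPKM (difference -0.697) and DGKZ, which removes diacylglycerol by phosphorylation, was at 30.6 and 43.03 FPKM (difference 0.48).

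Across all genes compared, 96 (0.818%) were at least 2-fold higher in the knockdown and 76 (0.647%) at least 2-fold lower. At a smaller size of 1.5-fold, 648 (5.52%) were higher and 484 (4.12%) lower. Of these 648, 147 reached 1 FPKM in the knockdown alone and so had to be higher. Of the 11242 genes that reached 1 FPKM in the control, 501 were 1.5-fold higher and 484 lower. The counting interval left out 0 for each of the 172 genes past 2-fold. The same libraries chose these genes by size, so this adds no support to them. The median difference over all genes was 0.04, and the middle 90% of genes lay between -0.54 and 0.61. Of all genes compared, 44.9% were below 0. The counts of list members given below are to be read beside these shares. The genes past 2-fold and higher were mostly of low level. Among the 3035 genes whose higher library was at 1 to 5 FPKM, 29 were higher and 11 lower. Among the 830 at 100 FPKM or more, 3 were higher and 11 lower. The share past 2-fold in either direction was 1.32% and 1.69% in these classes. HIST2H4A, at 3.28 and 7.56 FPKM, lay just inside the 2-fold size, as did ERLIN1, an ER membrane protein, at 6.03 and 2.49 FPKM. TAPBP (111 and 221 FPKM), IRF4 (125 and 62.3 FPKM) and SLC7A11 (3.79 and 1.41 FPKM) lay just outside. The medians of single chromosomes lay between -0.02 and 0.10. Their shares of genes past 2-fold ran from 0.516% on chromosome 7 to 3.06% on chromosome 8.

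**Figure D1:**
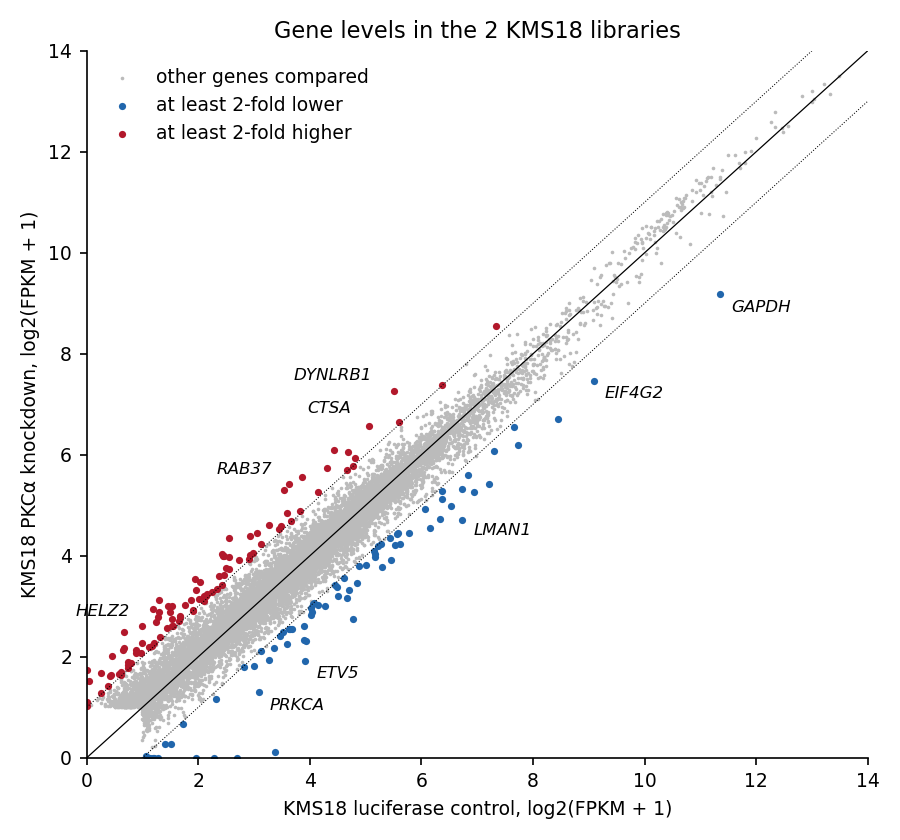
Each point is 1 gene, with log2(FPKM + 1) in the KMS18 control on the x axis and in the KMS18 PKCα knockdown on the y axis; the dotted lines mark a 2-fold difference. The 76 blue genes below the lines include GAPDH, EIF4G2 and LMAN1 at high levels, and the 96 red genes above them are mostly of low level.

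Many of the lowered genes share a short word in the 3′ untranslated region (UTR). The words AGTCTAA and CAGTCTA, 7 bases each and joined in CAGTCTAA, came from an earlier look at these data, so their frequency among lowered genes is a description. The sites of 8 lowered genes, chosen to show both words and a range of gene functions, are printed 5′ to 3′ on the strand of the transcript with 10 bases on either side and the word in capitals. They were read from GENCODE version 29 transcripts (GRCh38) matched by gene identifier.
LMAN1 (chr18:59330994-59331020, minus strand): attgcttcatAGTCTAAattattaatt
PRKCA (chr17:66810315-66810341, plus strand): tactattttgAGTCTAAaggttttcta
SSR1 (chr6:7281744-7281771, minus strand): taaatctcccCAGTCTAActttttgtca
UCHL1 (chr4:41268132-41268159, plus strand): cccccccatgCAGTCTAAaatgcttcag
ATP2A2 (chr12:110346899-110346926, plus strand): tttgatatcaCAGTCTAAtttttattca
PGAM1 (chr10:97432738-97432765, plus strand): cacaggttctCAGTCTAAgctatggaaa
NRAS (chr1:114704873-114704900, minus strand): tttctttgagCAGTCTAAtgtgccacac
EIF4G2 (chr11:10797528-10797554, minus strand): caagcagaggCAGTCTAttgcaaggac
A match is a description of the letters and says nothing of what binds there. PRKCA is itself among the genes with a word, near the end of its 3′ UTR.

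Of 10680 compared genes with an annotated 3′ UTR, 1367 (12.8%) held AGTCTAA or CAGTCTA. Among those at least 2-fold lower the share was 39 of 68 (57.4%), and among those at least 1.5-fold lower it was 153 of 435 (35.2%). Among genes at least 2-fold higher it was 2 of 83 (2.41%). The opposite strand read the same way (TTAGACT or TAGACTG) was in 15.9% of all these 3′ UTRs and in 16.2% of those of the genes 2-fold lower. Among the genes 2-fold higher it was in 2.41%, the same share as the words themselves, so the low share there is not particular to the words. The 3′ UTRs of these higher genes had a median of 1004 bases, against 1360.5 over all genes. Genes with the 8-base CAGTCTAA had a median difference of -0.21 in KMS18 and -0.18 in KMS28BM, and genes with neither word 0.05 and 0.06. Long 3′ UTRs hold any word more often. Within 3′ UTRs of under 500 bases 4 of 16 genes 2-fold lower held a word, against 1.67% of all genes of that length, and at 2000 to 4000 bases it was 14 of 19 against 18.5%. In each of the 5 length classes the median difference was below 0 with a word and above 0 without.

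**Figure D2:**
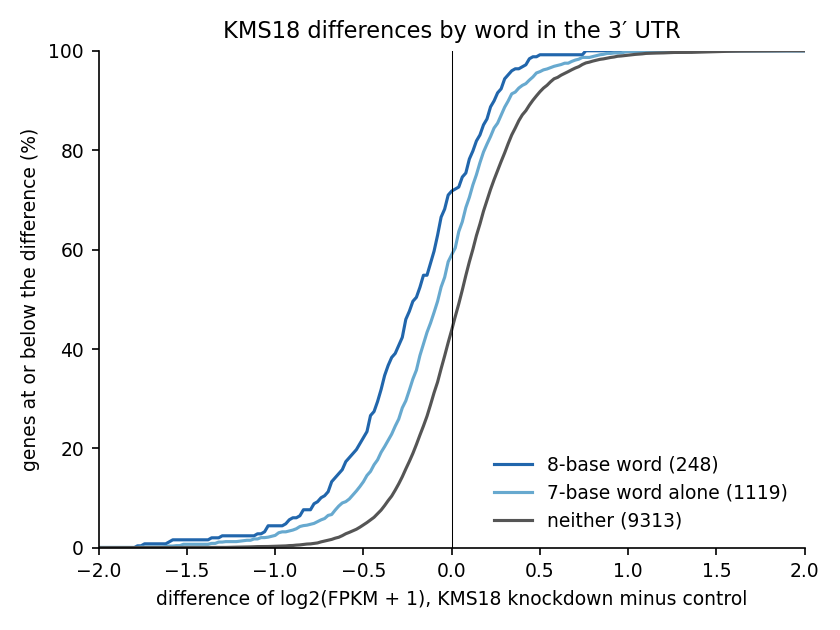
The curves give the share of genes (y axis, %) at or below each KMS18 difference of log2(FPKM + 1) (x axis) for 248 genes with the 8-base word in the 3′ UTR, 1119 with a 7-base word alone and 9313 with neither. The curve of the 8-base word lies farthest to the left, with 71.8% of its genes below 0.

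The other 29 genes that were 2-fold lower and have an annotated 3′ UTR held neither word. They include GAPDH, ETV5, ANXA2, SLC7A5, BHLHA15, ELL2, CDC6, SEC24D and PMAIP1, which are described with their groups below.

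**Figure D3:**
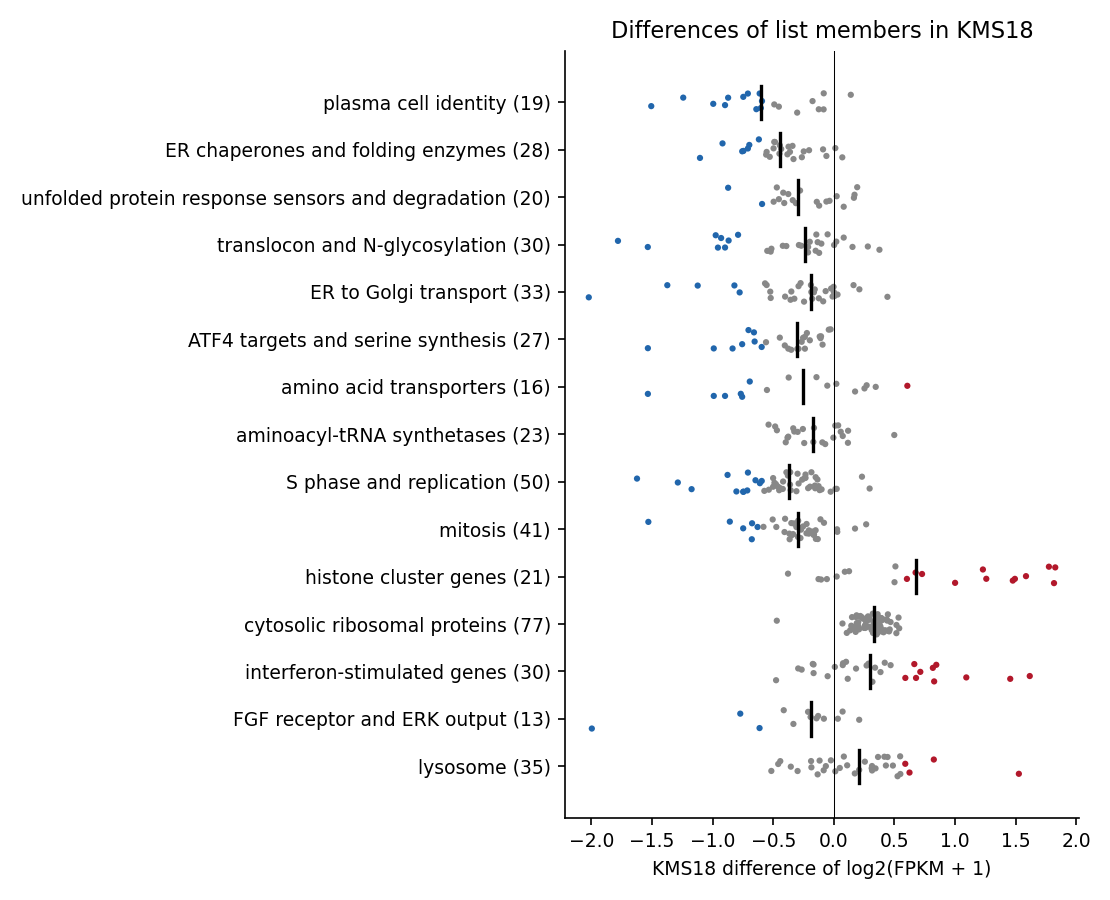
Each point is 1 compared member of a gene list (number compared in brackets), placed by its KMS18 difference of log2(FPKM + 1); blue and red points are 1.5-fold lower and higher, and black bars are list medians. Plasma cell identity has the lowest median, -0.60, and the cytosolic ribosomal proteins sit in a narrow band around 0.33 with RPL5 apart.

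The protein folding machinery of the ER was lower in KMS18 knockdown cells. Of 28 chaperones and folding enzymes, 26 were below 0, with a median of -0.45, and 7 were at least 1.5-fold lower and 0 higher. In KMS28BM, where 3.9% of all genes were 1.5-fold lower and 6.21% higher, the same members had a median of -0.51, with 9 lower. TXNDC11, an ER thioredoxin domain protein, had the largest difference of the list, from 202 to 93.2 FPKM (-1.105). ERO1A, the oxidase that recharges protein disulfide isomerase, was at 28.4 and 14.5 FPKM (-0.92). HSP90B1, the ER member of the HSP90 family, was at 831 and 512 FPKM (-0.698), and the PDI family member PDIA4 at 171 and 102 FPKM (-0.75). MANF, a stress-induced ER protein, was at 184 and 108 FPKM, and MZB1, a B cell chaperone of antibody assembly, was at 680.1 and 415 FPKM. XBP1, the transcription factor of the unfolded protein response, went from 359.9 to 196 FPKM (-0.87), against -0.83 in KMS28BM. EDEM3, which trims mannose from misfolded glycoproteins, was at 55.4 and 36.4 FPKM, and it was the other of the 2 stress sensor and degradation genes past 1.5-fold of 20 compared.

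Promoters of this group were searched for the ER stress response element, because it is the known binding site of ATF6 with the factor NF-Y. The letters searched were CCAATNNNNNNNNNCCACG on both strands, in RefSeq promoters of GRCh38.p14 that run from 250 bases before to 50 bases after the gene start. The element was in 22 of 27305 promoters (0.0806%) and in 14 of the 8550 compared genes matched by symbol (0.164%). Among the ER chaperones it was in 6 of 27, among the stress sensors and degradation genes in 1 of 17, and among 25 translocon and 29 ER export promoters in 0. The matches in 4 genes of high level are shown with the fixed letters in capitals.
HSPA5 (chr9:125241391-125241409, minus strand): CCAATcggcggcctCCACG
HSP90B1 (chr12:103930216-103930234, plus strand): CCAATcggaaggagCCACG
CALR (chr19:12938384-12938402, minus strand): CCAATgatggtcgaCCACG
XBP1 (chr22:28800603-28800621, minus strand): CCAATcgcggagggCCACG
All 7 list genes with the element (these 4, CANX, CRELD2 and ERO1B) were below 0 in KMS18, with a median of -0.49. The whole ER chaperone list, which supplied 6 of them, had 26 of 28 members below 0 and a median of -0.45. The values therefore do not set the genes with the element apart from their list. Compared genes with the element outside these lists are not described, and a part of ATF6 was not tested. HSPA5, which encodes the chaperone BiP, had a KMS18 difference of -0.62, the same to 2 decimals as in KMS28BM. A missing match says only that these letters are not in this window.

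Protein entry into the ER and exit from it held some of the lowest genes. Among 30 translocon and N-glycosylation genes 8 were 1.5-fold lower and 0 higher, with a median of -0.24. SSR1, which belongs to a complex beside the translocon, went from 147 to 41.98 FPKM and SEC63, which helps proteins through the channel, from 42.7 to 14.1 FPKM. Both are among the 4 of these 8 lowered members that hold a word. RPN1 and RPN2, subunits of oligosaccharyltransferase, were at 271 and 137 FPKM and at 414 and 217 FPKM, SSR3 was at 261 and 134 FPKM, and SEC11C, a signal peptidase subunit, was at 425 and 228 FPKM. LMAN1, the cargo receptor between ER and Golgi, had the largest difference of 33 transport genes, from 105 to 25.1 FPKM (-2.02, count interval -2.03 to -1.94). SEC24A and SEC24D, coat proteins that select cargo at ER exit sites, were at 27.8 and 10.1 FPKM and at 46.02 and 20.6 FPKM. CREB3L2, a transcription factor of the secretory pathway, was at 23.7 and 12.99 FPKM. In all 5 transport genes were 1.5-fold lower and 0 higher, and 28 of 33 were below 0.

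ER calcium genes showed a pair of large differences in a list that otherwise stayed near 0. ATP2A2, the pump that fills the ER with calcium, was at 70.2 and 22.5 FPKM (-1.6) and RCN1, an ER calcium-binding protein, was at 90.9 and 30.6 FPKM (-1.54). Both hold a word. None of the other 13 members reached 1.5-fold, and the next largest, the ER calcium sensor STIM1, was at 45.5 and 60.2 FPKM (0.397).

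Plasma cell identity genes formed the list with the lowest median, -0.603 in KMS18 and -0.61 in KMS28BM. Of 19 compared members 11 were 1.5-fold lower and 0 higher, and of the 18 with an annotated 3′ UTR 0 hold a word. BHLHA15 (MIST1), a transcription factor that shapes secretory cells, went from 24.3 to 7.91 FPKM (-1.51). ELL2, the elongation factor that favours secreted antibody mRNA, went from 81.4 to 33.8 FPKM (-1.24). IRF4, on which myeloma cells depend, was at 125 and 62.3 FPKM in KMS18 (-0.995), against 113 and 90.8 FPKM in KMS28BM (-0.32). PRDM1 (BLIMP1), the repressor of the B cell programme, was at 52.8 and 34.7 FPKM, and POU2AF1, a coactivator of immunoglobulin genes, at 114 and 67.7 FPKM. The difference between lines has no residual degrees of freedom and was not tested, here and wherever both lines are set side by side. Several of these genes are also the markers by which plasma cells are recognised. The summed level of the 10 markers was 7804 FPKM in the control and 6667 FPKM in the knockdown. JCHAIN made up most of both sums, at 5701 and 5376 FPKM (-0.08), while 8 of the 10 markers were 1.5-fold lower, 7 of them also on counts per library.

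B cell genes lay nearer 0. Of 9 compared, 0 were 1.5-fold higher and BACH2, a repressor of plasma cell differentiation, was lower at 5.99 and 3.04 FPKM. PAX5, which sets B cell identity, was at 1.61 and 2.29 FPKM. Antigen presentation genes lay above 0 in 20 of 22 cases, 5 of them 1.5-fold higher and 0 lower. TAPBP, which loads peptide on class I, was at 111 and 221 FPKM (0.99). HLA-DPA1, HLA-DPB1 and HLA-DQB1, class II chains, were at 686 and 1039 FPKM, 546 and 828 FPKM and 208 and 333 FPKM. Class II genes have near-identical copies in the annotation, so their values are uncertain. CD74, the class II invariant chain, was at 7267 and 8842 FPKM in KMS18, against 5.63 and 51.8 FPKM in KMS28BM, the second largest difference between the lines.

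Surface antigens used to target myeloma differed in both directions. SLAMF7, the target of elotuzumab, was at 130.0 and 83.1 FPKM, SDC1 (CD138) at 239 and 156 FPKM and TNFRSF17 (BCMA) at 376 and 247 FPKM, each 1.5-fold lower. CD38 was at 26.4 and 29.2 FPKM, while its expected counts were 3207 and 4880, a log2 count ratio of 0.605 (interval 0.54 to 0.67), and its listed length went from 3238 to 4439 bases. LILRB4, an inhibitory receptor, was at 0.57 and 3.41 FPKM (1.49) and LY9 at 31.4 and 48.9 FPKM. ITGB7, an integrin chain of myeloma adhesion and homing, was at 189.9 and 332 FPKM (0.804) and CD86 at 2.67 and 5.07 FPKM. Of 19 compared, 4 were 1.5-fold higher and 3 lower. LILRB4 reached 1 FPKM in the knockdown alone and so had to be higher. Of the other 18 members, 3 were 1.5-fold higher and 3 lower.

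FGFR3 was the one of 4 genes of the translocated region past 1.5-fold in KMS18, and 3 of 13 output genes of FGF receptor and ERK signalling were 1.5-fold lower, with a list median of -0.19. FGFR3 was at 437 and 261 FPKM in KMS18 (-0.74), against 593 and 527 FPKM in KMS28BM (-0.17). NSD2 was at 246 and 184 FPKM (-0.42), against -0.61 in KMS28BM. ETV5, a transcription factor induced by FGF and ERK signalling (chromosome 3, 186046308 to 186110318, minus strand), went from 14.1 to 2.79 FPKM in KMS18 (1386 and 315 counts, -1.997, interval -2.32 to -1.96). In KMS28BM ETV5 was at 10.9 and 9.06 FPKM (-0.25). DUSP6, a phosphatase that ERK induces and that acts on ERK, was at 19.1 and 12.1 FPKM in KMS18, against 13.2 and 16.7 FPKM in KMS28BM. MAFF, a small MAF protein, was at 1.75 and 0.61 FPKM, and ETV4, a close relative of ETV5, was at 13.9 and 10.2 FPKM. These 3 of 13 output genes (ETV5, DUSP6 and MAFF) were 1.5-fold lower and 0 were higher. MAFF reached 1 FPKM in the control alone and so had to be lower, and DUSP6 was not past 1.5-fold on counts per library. The other 10 lay between -0.41 and 0.21, among them the feedback inhibitors of the Sprouty and SPRED families.

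Within the RAS and ERK cascade NRAS was the one gene of 24 past 1.5-fold, at 47.8 and 17.9 FPKM (-1.37), and it holds CAGTCTAA. A count of 1 in 24 is near the 4.12% of all genes compared that were 1.5-fold lower. SOS1, a RAS activator that also holds a word, was at 14.3 and 9.78 FPKM, and FRS2, the adaptor of FGF receptors, was at 2.31 and 3.83 FPKM.

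**Figure D4:**
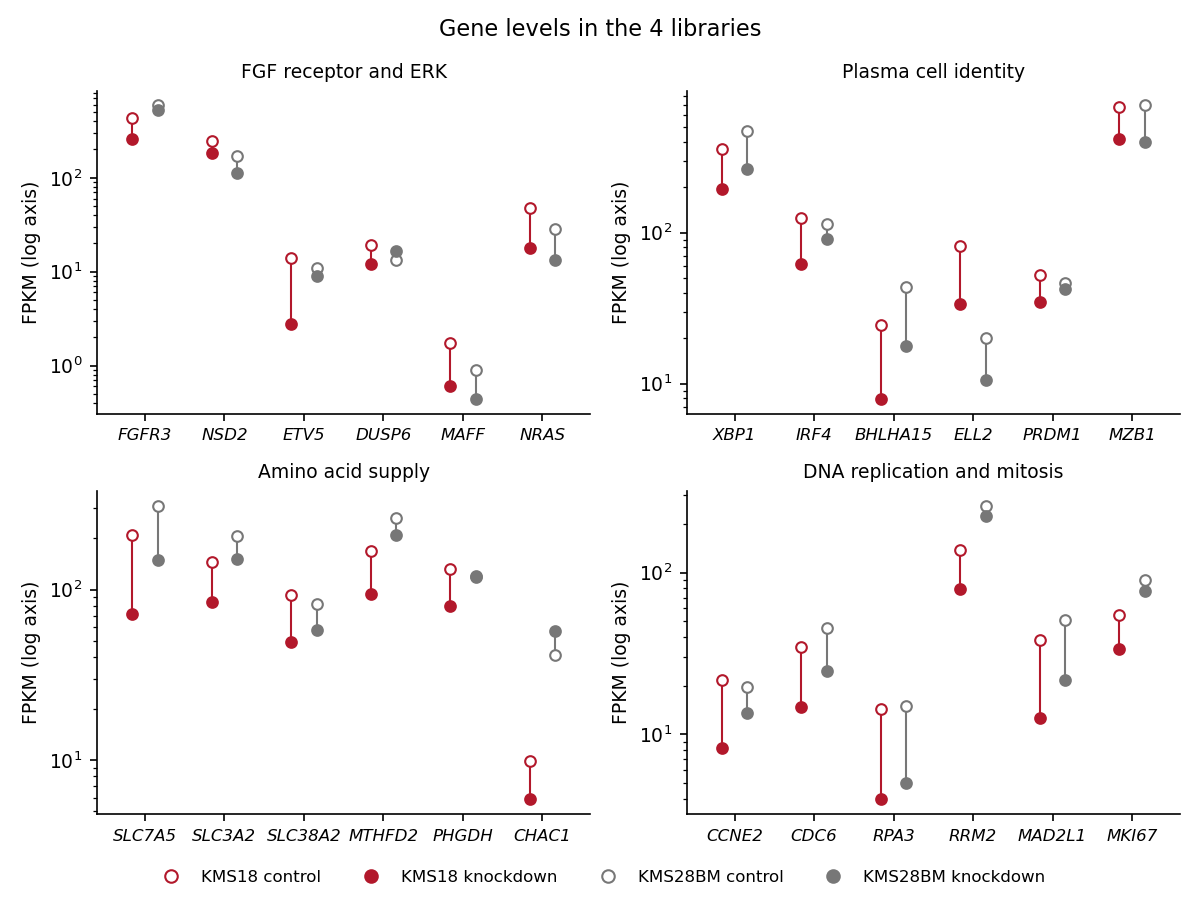
FPKM on a log axis for 6 genes of each of 4 groups; open circles are control libraries and filled circles knockdown libraries, 1 library each, with KMS18 in red and KMS28BM in grey. DUSP6 and CHAC1 were lower in the KMS18 knockdown and higher in the KMS28BM knockdown, and ETV5 has the longest red line of its panel.

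ATF4 target genes were lower in KMS18, and amino acid transporters were lower in part. ATF4 is the transcription factor that amino acid shortage and ER stress induce through the integrated stress response. All 27 compared ATF4 and serine synthesis genes were below 0, with a median of -0.302 and 8 members 1.5-fold lower. In KMS28BM 10 of the same 27 were below 0, with a median of 0.05. SLC7A5 (LAT1), which imports leucine, went from 210.2 to 71.9 FPKM (-1.53), and its partner SLC3A2 (CD98) from 144 to 84.95 FPKM. SLC7A11, the cystine importer, was at 3.79 and 1.41 FPKM and SLC38A2, a glutamine transporter, at 92.8 and 49.3 FPKM. Of 16 amino acid transporters 6 were 1.5-fold lower and 1 higher, with 10 below 0, and the higher one was the lysosomal carrier SLC36A1, at 3.29 and 5.53 FPKM. The transporter list and the ATF4 list both hold SLC7A5, so their counts of lowered genes overlap. PHGDH, the first enzyme of serine synthesis, was at 131 and 80.3 FPKM in KMS18, against 119 and 120.0 FPKM in KMS28BM. MTHFD2, a mitochondrial folate enzyme, was at 168 and 93.8 FPKM, and CHAC1, which degrades glutathione, was at 9.82 and 5.85 FPKM in KMS18, against 41.5 and 57.3 FPKM in KMS28BM. Of the 23 aminoacyl-tRNA synthetases 16 were below 0 and 0 reached 1.5-fold. AARS had the largest difference among them, from 101 to 68.9 FPKM.

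DNA replication genes were lower as a group in KMS18. Of 50 S phase genes 46 were below 0, against 44.9% of all genes compared, with a median of -0.37. Of the 50, 12 were 1.5-fold lower (10 of them also on counts per library) and 0 higher. In KMS28BM 26 of the 50 were below 0 and the median was -0.07. CCNE2, the cyclin that drives entry into S phase, was at 21.6 and 8.27 FPKM in KMS18, against 19.5 and 13.5 FPKM in KMS28BM. CDC6, which loads the replicative helicase, was at 34.7 and 14.8 FPKM, and RPA3, a subunit of the single-strand binding complex, was at 14.3 and 3.95 FPKM. RRM2, which makes deoxynucleotides, was at 139 and 79.04 FPKM, DTL at 40.5 and 21.6 FPKM and the chromatin assembly factor CHAF1A at 52.99 and 31.1 FPKM. CCNE2, RPA3 and DTL hold a word and CDC6, RRM2 and CHAF1A do not, and the median of the 43 members without one was -0.36.

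Mitotic genes followed the same direction. Of 41 compared, 37 were below 0 (22 in KMS28BM) and 6 were 1.5-fold lower, with a median of -0.29. MAD2L1, the spindle checkpoint protein, went from 38.4 to 12.6 FPKM (-1.53) and holds a word. MKI67, the proliferation marker Ki-67, was at 54.6 and 33.8 FPKM in KMS18, against 90.6 and 76.7 FPKM in KMS28BM. CDK1, the kinase of mitotic entry, was at 25.8 and 15.8 FPKM and ANLN, a cytokinesis protein, at 23.9 and 12.8 FPKM. None of the 19 cell cycle inhibitors and D cyclins reached 1.5-fold.

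Many histone genes of low level were higher in KMS18. Of 21 compared out of 44 listed, 12 were 1.5-fold higher, 9 of them 2-fold, and 0 lower, with a median of 0.67 (KMS28BM 0.36). HIST2H2BE was at 1.47 and 7.76 FPKM (1.83), HIST1H2AC at 4.83 and 19.5 FPKM (1.82) and HIST1H2BK at 10.5 and 38.5 FPKM (1.77). HIST1H3H was at 1.46 and 6.38 FPKM and HIST1H4H at 1.89 and 7.04 FPKM. The library kit selects polyadenylated RNA and most replication-dependent histone mRNA carries no poly(A) tail, so these levels are of the transcripts that the kit retained. Histone genes have close copies, which makes the single values uncertain. Of the 21, 3 reached 1 FPKM in the knockdown alone and so had to be higher, and 10 of the other 18 were 1.5-fold higher. The summed level of all 21 was 1603 and 1562 FPKM (69305 and 68685 counts), most of it from abundant variant histones such as H3F3A, at 574 and 526 FPKM, and H2AFZ, at 350.0 and 269 FPKM. HIST1H2BK, at 10.5 and 38.5 FPKM, was above 1 FPKM in both libraries.

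Cytosolic ribosomal protein genes shared a small difference. Of 77, 76 were above 0, with a median of 0.33, and 0 reached 1.5-fold in either direction. The median in KMS28BM was 0.12. RPLP0 was at 1931 and 2763 FPKM, RPS29 at 989 and 1438 FPKM and RPL27 at 1505 and 2179 FPKM. RPL5 was the exception, at 951 and 686 FPKM (-0.47). The KMS18 median came to 0.25 with counts scaled by TMM, a method that centres the bulk of genes, and it stayed above 0 under every scaling tried. EIF4G2, a translation initiation factor used in cap-independent initiation, went from 544 to 176 FPKM (-1.62). It was the one of 35 initiation and elongation genes past 1.5-fold, where 4.12% of all genes compared were 1.5-fold lower. MYC was at 405 and 258 FPKM in KMS18, against 646 and 304 FPKM in KMS28BM, and 29 of 33 of its targets and nucleolar factors were below 0, with a median of -0.26. NCL (nucleolin) was at 399 and 221 FPKM and NOP56, a core protein of methylation guide complexes, at 159 and 102 FPKM.

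Glycolysis held large differences in few genes. GAPDH (chromosome 12, 6533927 to 6538374, plus strand) went from 2614 to 582 FPKM (-2.17, interval -2.18 to -2.14), while 19 of the 23 compared genes did not reach 1.5-fold. GAPDH has many pseudogenes, which can take some of its reads. PGAM1, which moves the phosphate of phosphoglycerate, was at 79.8 and 25.6 FPKM, HK2, the inducible hexokinase, at 15.3 and 6.06 FPKM and ENO2, an enolase, at 6.97 and 3.38 FPKM. PGAM1 and HK2 hold a word. Hypoxia targets were 1.5-fold lower in 5 of 20 cases, 3 of them also on counts per library, against 4.12% of all genes compared. Among the 5 were HIF1A itself at 22.9 and 14.1 FPKM and ANKRD37 at 60.8 and 33.3 FPKM. All 3 members that hold a word, HIF1A among them, were 1.5-fold lower. Of the 17 without a word 2 were, and their median was -0.13. CS, the enzyme that opens the citric acid cycle, was at 114 and 47.5 FPKM (-1.24), whereas IDH2 was at 34.1 and 58.2 FPKM (0.75). Of 49 nuclear genes of the respiratory chain 44 were above 0 and 0 reached 1.5-fold. NR1H2, which encodes the oxysterol receptor LXRβ, was at 8.64 and 23.5 FPKM (1.35, 1.41 in KMS28BM). It was the 1 of 31 cholesterol and fatty acid genes past 1.5-fold, where 5.52% of all genes compared were 1.5-fold higher.

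Interferon-stimulated genes, most of them at low level, were 1.5-fold higher in 10 of 30 compared (44 listed) and lower in 0. HELZ2, a nuclear receptor coactivator, was at 0.99 and 5.1 FPKM (1.62), IFIT3, an antiviral protein, at 1.36 and 5.47 FPKM (1.45) and PARP9 at 1.87 and 5.12 FPKM (1.09). IFI6 was at 2.63 and 5.52 FPKM and ZBP1, a nucleic acid sensor, at 2.59 and 5.37 FPKM. Of the 30, 3 reached 1 FPKM in the knockdown alone, among them HELZ2 and EPSTI1, and had to be higher, and 8 of the other 27 were 1.5-fold higher. In KMS28BM 5 of the same 30 were 1.5-fold higher, and IFIT3 was at 0.02 and 0.19 FPKM. The listed length of HELZ2 was 9447 bases in the control and 6801 in the knockdown. UBD, a ubiquitin-like protein induced by interferon and tumour necrosis factor, was at 4.38 and 15.4 FPKM.

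The BCL2 family held 2 genes at least 1.5-fold lower, 1 of survival and 1 of death, and 0 higher, of 13 compared, and on counts per library BCL2 did not reach that size. BCL2, the survival factor that venetoclax blocks, was at 45.1 and 25.8 FPKM in KMS18 (-0.79) and had a difference of -0.12 in KMS28BM. MCL1, the main survival factor of plasma cells, was at 121 and 84.01 FPKM (-0.52). PMAIP1 (NOXA), which counters MCL1, was at 46.6 and 20.98 FPKM (-1.12). BCL2L11 (BIM), a cell death activator, was at 18.4 and 26.8 FPKM (0.51) and BMF at 38.01 and 53.8 FPKM. NF-κB regulators and targets lay on both sides of 0, with 13 of 23 above it, 10 below it and a median of 0.07. These values are near those of all genes compared, of which 44.9% were below 0. Of the 23, 3 were 1.5-fold lower and 1 higher. NFKBIA, the inhibitor of the pathway, was at 55.8 and 35.3 FPKM, ICAM1 at 23.9 and 15.02 FPKM and TRAF1, an adaptor of tumour necrosis factor receptors and the one higher member, at 1.05 and 2.45 FPKM. CCL3, a chemokine of myeloma bone disease, was at 37.9 and 24.2 FPKM in KMS18, against 2.1 and 5.76 FPKM in KMS28BM, opposite in sign.

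Lysosomal and nutrient sensing genes were higher in a few members. CTSA, a lysosomal protease, was at 32.2 and 94.6 FPKM (1.53), CTSS at 59.5 and 106 FPKM and GRN (progranulin) at 71.5 and 111 FPKM, and 4 of 35 lysosome genes were 1.5-fold higher. RRAGB, RRAGA and LAMTOR1, parts of the Rag and Ragulator platform that recruits mTORC1 to the lysosome, were at 4.25 and 7.92 FPKM, 18.7 and 28.99 FPKM and 45.5 and 70.6 FPKM. TBC1D7, a subunit of the TSC complex that restrains mTORC1, was at 21.6 and 36.2 FPKM. Of 30 mTORC1 components 4 were 1.5-fold higher and 0 lower. In the circadian clock ARNTL (BMAL1), an activator, was at 3.44 and 8.49 FPKM (1.096) while NR1D1 (REV-ERBα), its repressor, was at 17.2 and 10.2 FPKM (-0.69). None of the 38 proteasome genes reached 1.5-fold.

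Among annexins, ANXA2, which binds membrane phospholipid with calcium and supports myeloma adhesion to marrow, went from 122 to 37.3 FPKM (-1.69). ANXA6 was at 80.5 and 119 FPKM and ANXA1 at 2 and 3.95 FPKM. Cancer-testis antigens, silent in most adult tissue, differed in single members. CTAG2 (LAGE-1) was at 149 and 252 FPKM and CSAG1 at 71.8 and 36.1 FPKM, and GAGE12E was at 5.45 FPKM in the control and not listed in the knockdown. The GAGE and CTAG genes have near-identical copies and are uncertain. KDM2B, a demethylase of histone H3 lysine 36, was at 12.9 and 6.53 FPKM in KMS18 (-0.89, -0.09 in KMS28BM). KDM6B, a demethylase of lysine 27, was at 1.7 and 3.71 FPKM.

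Adhesion and homing genes were 1.5-fold higher in 4 of 24 cases and lower in 2, with a median of 0.02. Of the 4, 1 reached 1 FPKM in the knockdown alone and so had to be higher. Of the other 23 members, 3 were 1.5-fold higher and 2 lower, against 501 and 484 of the 11242 genes that reached 1 FPKM in the control. NECTIN1, a cell adhesion receptor, had the largest difference of that list, at 13.5 and 46.5 FPKM (1.71). Other genes among the largest differences are given one by one. DYNLRB1, a dynein light chain, was at 44.3 and 154 FPKM (1.77, interval 1.69 to 1.89) and RAB37, a small GTPase of secretory vesicles, was at 11.3 and 41.9 FPKM (1.798). RAB37 stayed under 1 FPKM in both KMS28BM libraries. HSD17B10, a mitochondrial dehydrogenase, was at 20.7 and 67.4 FPKM, and LITAF, an endosomal protein, at 4.53 and 15.03 FPKM. ADGRG1, an adhesion G protein-coupled receptor, was at 4.44 and 15.03 FPKM. CDH17, a cadherin of intestinal epithelium, was at 18.7 and 52.2 FPKM, beside EPCAM, which was lower. COTL1, an actin-binding protein, was at 24.6 and 65.4 FPKM.

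CD3E, a signalling chain of the T cell receptor complex, was at 7.32 and 20.9 FPKM (381 and 1101 counts, 1.4) and S100A9, a myeloid calcium-binding protein, at 1.8 and 6.41 FPKM (1.404). The summed level of 12 T cell markers was 10.2 FPKM in the control and 27.5 FPKM in the knockdown, of which CD3E made up the larger share in both. TRAC, the constant region of the T cell receptor α chain, was at 2.13 and 4.94 FPKM (0.92), CD7 at 0.32 and 0.82 FPKM, CD3G at 0.14 and 0.4 FPKM and CD3D at 0.22 and 0.06 FPKM. The summed level of 9 myeloid markers was 2.67 and 8.59 FPKM, with ITGAM at 0.47 and 1.61 FPKM and CD14 not listed. PECAM1, an adhesion molecule of endothelium and leukocytes, was at 0.54 and 2.25 FPKM (1.08), and the other 5 endothelial markers were not listed. The part of other cell types in these values was not tested.

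The lowest KMS18 difference among genes of 5 FPKM or more was that of ENSG00000283149.1, a gene with no symbol in the tables (plus strand of chromosome 3, 186581995 to 186597103). It was at 9.34 and 0.09 FPKM in KMS18, against 17.2 and 1.62 FPKM in KMS28BM. UCHL1, a ubiquitin hydrolase, was at 350.2 and 103 FPKM (-1.75). TMX1, a thioredoxin of the ER membrane, was at 25.1 and 9.06 FPKM and SLC4A7, a bicarbonate transporter, at 11.02 and 3.78 FPKM. DESI2 was at 13.96 and 4.03 FPKM and KBTBD8, a ubiquitin ligase adaptor, at 8.63 and 2.82 FPKM. All 5 hold a word. CHST11, a chondroitin sulfotransferase, was at 13.8 and 5.12 FPKM and holds none, and its listed length differed between the libraries. FAM120AOS, at 45.3 and 17.7 FPKM, overlaps FAM120A on the other strand, and the kit does not keep strand. AC126755.2, at 26.5 and 5.72 FPKM, had a listed length of 623 bases in the control and 1402 in the knockdown, while its expected counts were 577 and 294. Of 10336 genes with at least 100 counts and 1 identifier, 86.6% kept their listed length within 1.1-fold. FPKM divides by this length, and 84 of the 1132 genes past 1.5-fold on FPKM were not past it on counts per library. Among the genes named with a size past 1.5-fold these are BCL2 (log2 count ratio -0.51, interval -0.56 to -0.46), CHAF1A (-0.48), DUSP6 (-0.54), HIF1A (-0.53), KDM2B (-0.58), NCL (-0.56), NOP56 (-0.56) and SDC1 (-0.57).

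Set beside KMS28BM, where 142 of 11455 genes (1.24%) were 2-fold higher and 86 (0.751%) 2-fold lower, the KMS18 genes differed mostly in the same direction. Of the 96 genes higher in KMS18, 66 were compared in KMS28BM, and 61 were above 0 and 24 past 2-fold there. Of the 76 lower, 68 were compared, and 63 were below 0 and 36 past 2-fold. Over all genes compared in KMS18, the KMS28BM median was 0.04. The median of the higher genes was 1.18 in KMS18 and 0.55 in KMS28BM, and of the lower genes -1.22 and -0.90. The KMS18 sizes chose these genes, so a smaller size in KMS28BM is what that choice favours. Named by the rule for the largest difference between lines, CYP26A1, which degrades retinoic acid, was at 5.1 and 3.2 FPKM in KMS18, against 1.44 and 5.82 FPKM in KMS28BM. POU2F2 (OCT2), a B cell transcription factor, was at 4.37 and 9.78 FPKM and at 2.84 and 1.87 FPKM, ABLIM1 at 4.02 and 9.15 FPKM and at 11.2 and 7.43 FPKM, and NAV1 at 1.9 and 5.68 FPKM and at 1.11 and 0.6 FPKM. FAM43A was at 1.76 and 7.04 FPKM in KMS18 and not listed in KMS28BM.

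**Figure D5:**
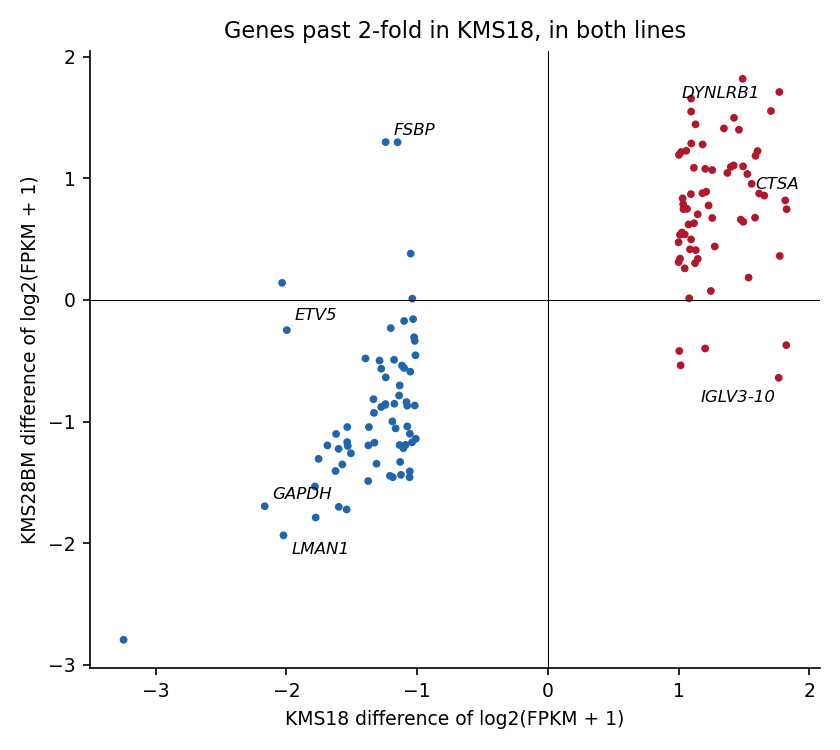
Differences of log2(FPKM + 1) in KMS18 (x axis) and KMS28BM (y axis) for the genes past 2-fold in KMS18 that reached 1 FPKM in a KMS28BM library, 68 lower (blue) and 66 higher (red). Most points lie in the quadrants of equal sign; ETV5 lies near 0 on the y axis, and FSBP and IGLV3-10 lie in the quadrants of opposite sign.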

How the data were processed

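Each construct and line has 1 library, made from 100 ng RNA with the TruSeq RNA version 2 kit, per the labels' protocols. This kit selects polyadenylated RNA and keeps no strand. Per the submitters' processing notes, STAR, Bowtie2 and HISAT were used in some role, with builds GRCh37 and hg19. The sources used here do not name the program that counted the reads. The authors deposited an expected count, an FPKM value and a length per gene. The smallest listed FPKM is 0.01, and an absent gene was taken as 0. Identifiers with a common symbol had both values added up (496 of the 11742 genes compared), and 697 genes had no symbol.

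Intervals come from an exact binomial split of the counts (scipy 1.17.1), were tested on simulated data, and leave out the spread between cultures. edgeR 4.0.16 (R 4.3.3) gave TMM factors for an alternative scaling, and no test was run. GENCODE version 29 gave positions for 11316 genes and 3′ UTRs for 10680, matched by identifier, and no coordinates were converted between builds.

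The members, the 45 gene lists, the 9 marker lists and the words were chosen with earlier results of these data known. The rule for named genes takes the kinase family, the 30 largest sizes per direction at 5 FPKM or more, list members past 2-fold, up to 6 members per list, 8 genes per direction between lines, NSD2, FGFR3 and the markers. ERLIN1, H2AFZ, H3F3A and SLC36A1 were added after their values were seen.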

Additional observations from a re-analysis of the deposited data

Results flagged for a closer look

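Among genes compared in both lines, 3 were past 2-fold in KMS18 and past 1.5-fold with the opposite sign in KMS28BM. The difference between lines was not tested, since each line has 1 library per construct. IGLV3-10, an immunoglobulin light chain variable segment, had a KMS18 difference of 1.77, from 1.27 to 6.72 FPKM, on 16 and 84.3 expected counts; related variable segments can share its reads. In KMS28BM it was at 10691 and 6857 FPKM, a difference of -0.64. FSBP had a KMS18 difference of -1.24, from 1.86 to 0.21 FPKM, while KMS28BM did not list it in the control and had 1.46 FPKM in the knockdown. The unnamed gene ENSG00000268790.5 had a KMS18 difference of -1.15, from 3.97 to 1.24 FPKM, and 1.297 in KMS28BM.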

How the results depend on the processing

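No paired analysis was possible because the comparison is within KMS18, with 1 library per construct and no replicate numbers. The counts of genes past 2-fold depend on the pseudocount. With 0.1 in place of 1, 337 genes were higher and 135 lower, and 1119 were 1.5-fold higher. With 5, 18 were higher and 33 lower, and 177 and 226 at 1.5-fold. The lower share of the genes past 2-fold was 44.2% as reported, 28.6% with 0.1, 64.7% with 5 and 52.7% with FPKM centred on the median of all genes. A floor of 5 FPKM left 379 genes 1.5-fold higher. With CPM on library size 169 genes were 2-fold higher, and the lower share was 36.9%. With TMM scaling 120 were lower, and with median of ratios scaling 119. PRKCA moved to -2.27 with a pseudocount of 0.1 and -0.95 with 5, and to -2.26, -2.32 and -2.32 under the library size, TMM and median of ratios scalings. The ribosomal protein median was 0.25 under both TMM and median of ratios, that of mitosis -0.38 and -0.37, and that of mitochondrial ribosomal proteins 0.014 and 0.016, and the cause was not tested. Of 303 named genes, 300 kept their direction under each of the 5 settings of scaling and identifiers that gave them a value (the identifier setting gave 300 genes one), as did 77 of 77 past 2-fold, and 38 of 44 list medians kept theirs under each of 9 settings. Leaving out the genes that hold a word, an alternative chosen after seeing the data, kept the sign of 40 of 44 list medians. Low counts limit genes near 1 FPKM, and the lack of replicates limits every size.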
